A study of Mus musculus with 4 samples.

Results

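The GIMAP genes encode GTPases of the immunity-associated protein family, and all 8 mouse genes named Gimap1 and Gimap3 to Gimap9 were described here. They were picked out by gene symbol, with no threshold on values, from a table of 40481 genes, and the family was chosen with earlier results of these data known. RNA was sequenced from type 1 innate lymphoid cells of mice (ILC1s), which live in tissues, are related to natural killer (NK) cells and were selected by the surface integrin CD49a. The 2 libraries labelled KO, numbered 3 and 4, came from Inpp4b flox/flox mice that also carried Ncr1-iCre, in which Cre recombinase is driven from the gene of the NK receptor NKp46. The 2 libraries labelled WT, numbered 1 and 2, came from Inpp4b flox/flox mice without the Cre. Both groups thus carried the floxed alleles, and an effect of the Cre itself cannot be told apart from a loss of the lipid phosphatase INPP4B. Liver was given as the tissue in the label of WT library 1, and the other labels gave the cell type alone. The sources used here do not give the age of the mice or the number of mice behind a library, so p-values measure the spread between these libraries, which may be technical.

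The libraries held 42380840 and 54125080 counts (KO 3 and 4) and 54878210 and 48491980 counts (WT 1 and 2). Levels are given as CPM, counts scaled to a common library total that was adjusted by TMM factors. The targeted transcript was not lower in the libraries labelled KO, where Inpp4b stood at 142.5 and 85.96 CPM, against 78.71 and 106.5 CPM in the libraries labelled WT. A count over the whole gene does not measure the deleted exons, so the directions given are those of the labels. Ncr1 itself stood at 1202 and 1077 CPM in the KO libraries and 1672 and 1772 CPM in the WT libraries. It missed the threshold of 0.05 with edgeR (adjusted p = 0.28) and passed it with DESeq2 (adjusted p = 0.0294).

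GIMAP proteins are GTP-binding proteins of lymphocytes, several of them anchored on membranes of organelles such as lysosomes, mitochondria and the endoplasmic reticulum. They are known for keeping resting lymphocytes alive: loss of Gimap5 causes lymphopenia in rats and mice, and loss of Gimap1 depletes mature T and B cells in mice. Gimap3 and Gimap5 proteins bind anti-apoptotic BCL2 family members, Gimap4 binds pro-apoptotic BAX and speeds the death of T cells, and Gimap6 binds the autophagy protein GABARAPL2. The series title places INPP4B in an AKT-driven survival pathway, and the comparison bears on whether transcripts of this survival family differ between the genotypes.

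The genes form a cluster on chromosome 6 that spans 123.6 kb, from 48647234 to 48770851 in mm10. Gimap8, Gimap9, Gimap4, Gimap7, Gimap1 and Gimap5 follow each other on the plus strand, with Gimap6 and Gimap3 on the minus strand. The count table also listed 2 other genes there. Gimap1os, a noncoding transcript on the minus strand, lies across the start of Gimap1, from 48738346 to 48741444. Gm28053, an annotated gene that joins exons of Gimap7, Gimap1 and Gimap5, lies from 48718607 to 48752644. By the GENCODE M21 annotation, Gimap1 shared 1107 of its 3073 exonic bases with Gimap1os, which left 64.0% of its exons to Gimap1 alone. The unshared share was 96.5% for Gimap7 and 96.3% for Gimap5, and the remaining members shared no exonic base. The sources used here do not give the strand setting of the authors' counting. Reads on the shared bases may have been dropped or given to either gene, so Gimap1 and Gimap1os counts are uncertain. Sequence shared between members was rarer. Of 2528 windows of 50 bases in Gimap3 transcripts, 190 also occurred in Gimap5 transcripts, and the other 6 genes shared no such window with any member. The split of reads between Gimap3 and Gimap5 is uncertain to that extent.

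**Figure D1:**
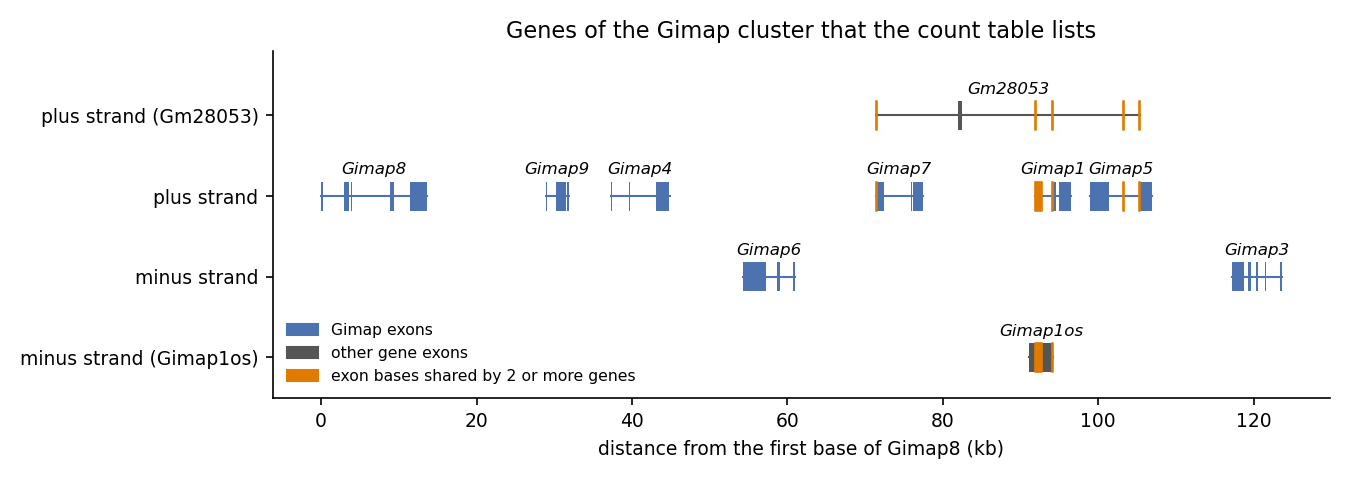
Exons of the 10 genes of the Gimap cluster that the count table lists, by distance in kb from the first base of Gimap8. Orange marks exon bases shared by 2 or more genes, and the longest shared stretch lies at the start of Gimap1, where Gimap1os overlaps it.

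Promoters of all 8 genes were found in the RefSeq table for GRCm38.p6, which holds 250 bases before and 50 after a start site and lists 2 starts for Gimap8. Shown are those of Gimap4 and Gimap6, the members at the highest levels, of Gimap5, whose values moved most closely with Gimap4, and of Gimap1, the member that varied most. Capitals mark matches, on either strand, to short motifs of lymphocyte transcription factors: TGTGGT for RUNX proteins, GGAAGT for ETS proteins, GTAAACA for FOXO proteins and AGGTGTG for T-box proteins.
Gimap4, chr6:48684328-48684627, plus strand: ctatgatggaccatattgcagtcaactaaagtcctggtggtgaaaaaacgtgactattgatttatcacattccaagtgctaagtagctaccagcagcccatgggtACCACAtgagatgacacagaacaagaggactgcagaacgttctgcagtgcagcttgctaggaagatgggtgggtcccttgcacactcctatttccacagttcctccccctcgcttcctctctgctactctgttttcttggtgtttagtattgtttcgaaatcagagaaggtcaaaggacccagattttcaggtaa
Gimap6, chr6:48708195-48708494, minus strand: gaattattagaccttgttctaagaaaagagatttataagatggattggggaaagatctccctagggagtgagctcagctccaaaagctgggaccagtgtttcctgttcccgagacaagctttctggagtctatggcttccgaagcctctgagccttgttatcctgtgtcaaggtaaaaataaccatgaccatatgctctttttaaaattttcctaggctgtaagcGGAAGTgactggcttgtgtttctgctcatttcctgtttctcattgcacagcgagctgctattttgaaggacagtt
Gimap5, chr6:48745947-48746246, plus strand: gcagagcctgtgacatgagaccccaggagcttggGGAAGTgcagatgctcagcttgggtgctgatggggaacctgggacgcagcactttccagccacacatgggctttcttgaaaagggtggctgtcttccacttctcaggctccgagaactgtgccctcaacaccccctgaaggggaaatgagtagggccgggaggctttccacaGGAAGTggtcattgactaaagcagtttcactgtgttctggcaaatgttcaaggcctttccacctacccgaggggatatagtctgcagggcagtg
Gimap1, chr6:48738797-48739096, plus strand: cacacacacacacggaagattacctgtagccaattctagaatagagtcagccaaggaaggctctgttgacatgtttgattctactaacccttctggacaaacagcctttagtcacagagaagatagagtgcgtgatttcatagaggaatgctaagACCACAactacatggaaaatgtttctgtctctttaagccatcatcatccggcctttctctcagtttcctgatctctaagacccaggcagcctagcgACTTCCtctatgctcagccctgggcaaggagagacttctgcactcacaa

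The ETS letters were present in promoters of 4 of the 8 genes (Gimap1, Gimap5, Gimap6 and Gimap9), against 23.8% of 32851 mouse promoters of the same length. The RUNX letters were present in 3 (Gimap1, Gimap4 and Gimap7), against 16.8% of all promoters. Gimap3 alone held the FOXO letters, which 3.6% of promoters hold, and no member held the T-box letters, which 5.8% hold. These are matches of letters, and binding was not measured. In the Gimap1 window the ETS letters began at base 252 on the reverse strand, next to the start site, within the span of Gimap1os.

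Several Gimap genes stood among the most abundant transcripts of these cells. To compare genes, each level was divided by the gene's exon length (CPM per kb of exon). Gimap4 stood at 1756 and 1769 CPM per kb in the KO libraries and 1493 and 1557 CPM per kb in the WT libraries, which ranked it 25 among 14853 tested genes with a length. Gimap6 came next, at 700.1 and 696.6 CPM per kb in KO and 655.4 and 658.8 CPM per kb in WT (rank 72). Gimap3 stood at 566.6 and 581.2 CPM per kb in KO and 544.7 and 620.8 CPM per kb in WT (rank 89). Gimap3 is a member that mice express, while its human counterpart is a pseudogene. Gimap7, whose human protein speeds GTP hydrolysis by a partner GIMAP, ranked 138, at a mean of 426.7 CPM per kb over the 4 libraries. These 4 genes and then Gimap9 (mean 168.1 CPM per kb) followed each other in level with no overlap between the libraries of neighbouring genes.

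The lower 3 members could not be put in a firm order. Gimap8, which unlike the other members encodes a protein with several GTPase domains, had a mean of 67.35 CPM per kb and Gimap5 a mean of 57.34 CPM per kb, and their libraries overlapped. Gimap1 stood at 35.69 and 15.38 CPM per kb in KO and 79.64 and 14.24 CPM per kb in WT, a range that took in all values of Gimap8 and Gimap5. With the same counts divided by its unshared exon length alone, its mean was 56.64 in place of 36.24 CPM per kb.

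**Figure D2:**
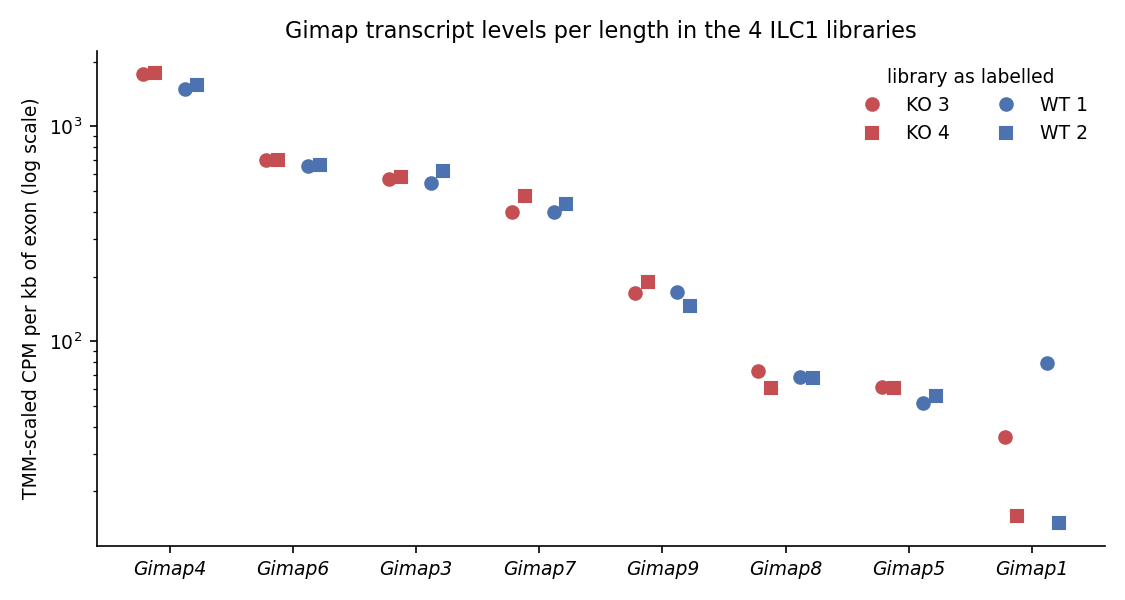
Level of each Gimap gene per kb of exon (TMM-scaled CPM per kb, log axis) in the 4 libraries, KO in red left of WT in blue. Gimap4 is highest at 1493 to 1769 CPM per kb, and Gimap1 spreads from 14.24 to 79.64 CPM per kb.

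The genotypes did not differ detectably in any Gimap gene. All 8 passed the filter on low counts, and edgeR's quasi-likelihood test over 14863 genes called 0 of them higher and 0 lower in the libraries labelled KO, where it called 0.141% of all genes higher and 0.0135% lower, or 0.155% in either direction. At an unadjusted p under 0.05 the count was also 0 each way, against 4.48% of all genes higher and 5.17% lower, or 9.65% in either direction. DESeq2 and limma-voom called 0 as well. Over all genes, limma-voom called 18 higher and 2 lower. Of all genes, DESeq2 called 1.85% higher and 1.36% lower, or 3.21% in either direction. The median log2 fold change of the 8 genes was 0.08, beside -0.01 over all genes tested, and 5 of the 8 values were above 0, as were 48.7% of all genes. Apart from Gimap1, the 95% intervals of the fold changes, each taken for its gene alone, lay between 0.763 and 1.46. They rest on the spread between 2 libraries per group, moderated over all genes, so a gene's own replicate gap sets them only in part. That spread may be technical and so sets no bound on differences between mice. In a bulk library, fewer cells that express a gene and less RNA per cell cannot be told apart.

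Among the 4 most abundant members, Gimap4 and Gimap6 varied least between libraries of the same genotype. Gimap7 differed 1.189-fold between the KO libraries, and 49.8% of 7700 genes with a mean of at least 10 CPM had a larger gap there. Gimap4 reached 3225 and 3250 CPM in the KO libraries and 2742 and 2860 CPM in the WT libraries. Both KO values were higher, and the difference of 0.21 on the log2 scale, with an SE of 0.13, missed the threshold (edgeR adjusted p = 0.69). Gimap6 stood at 2447 and 2435 CPM in KO against 2291 and 2303 CPM in WT. Replicates differed 1.005-fold in either genotype and the groups did not overlap, while the log2 difference was 0.09 (SE 0.13, edgeR adjusted p = 0.927). Gimap3 had 1460 and 1498 CPM in KO and 1404 and 1600 CPM in WT, so that the KO values lay between those of the WT libraries (log2 fold change -0.02, 95% interval -0.35 to 0.31). Gimap7 had 926.6 and 1102 CPM in KO and 927.3 and 1012 CPM in WT, with the KO values on either side of the WT ones (log2 fold change 0.06, 95% interval -0.29 to 0.42).

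Among the members at lower levels, Gimap5 was at 255.3 and 252.4 CPM in KO and 213.7 and 230.3 CPM in WT. This member, whose loss removes lymphocytes in rodents, had both KO values above both WT values, and differed by 0.19 on the log2 scale with an SE of 0.13 (edgeR adjusted p = 0.74). Gimap8 was at 270.2 and 223.5 CPM in KO, against 252.7 and 250.4 CPM in WT. Gimap9 was at 275.7 and 310.6 CPM in KO and 278.7 and 239.2 CPM in WT. The groups overlapped for both, with log2 fold changes of -0.03 and 0.18. In all, 3 of the 8 genes (Gimap4, Gimap5 and Gimap6) had non-overlapping groups with KO above, where 19.5% of all genes did. With KO below WT the count was 0, beside 20.8% of all genes, and in either direction 40.2% of all genes did not overlap.

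**Figure D3:**
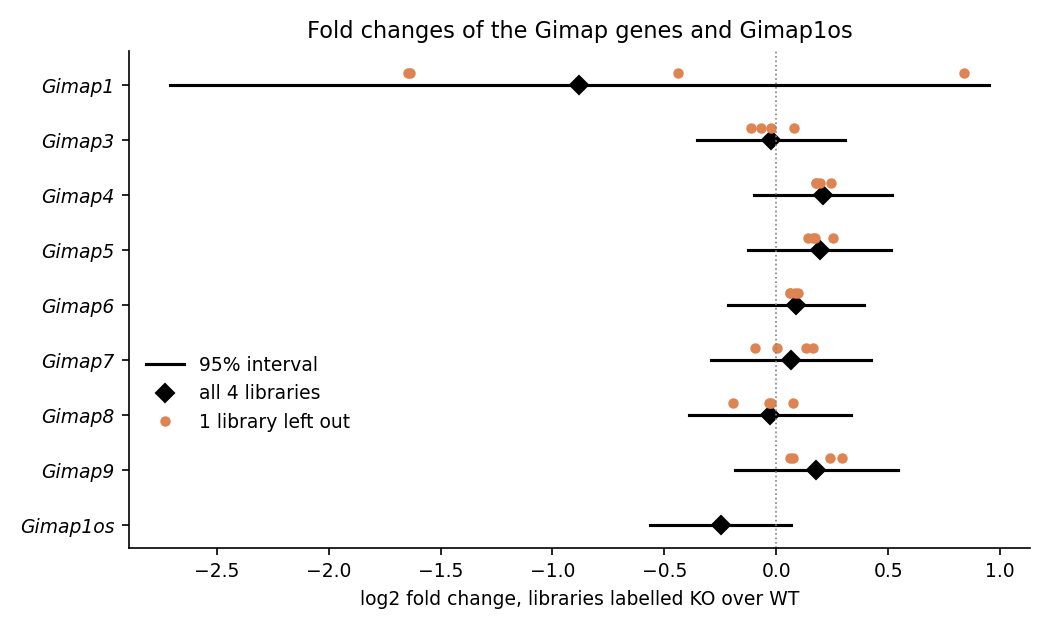
Log2 fold change of each Gimap gene and of Gimap1os, libraries labelled KO over WT, with its 95% interval (bars) and, for the Gimap genes, the values with 1 library left out (dots). All 9 intervals include 0, and that of Gimap1 runs from -2.71 to 0.95.

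Gimap1, required by mature lymphocytes of mice, differed most of the 8 between libraries of the same genotype. It had 4714 and 2445 counts in the KO libraries and 14191 and 2068 counts in the WT libraries, or 109.7 and 47.25 CPM against 244.7 and 43.77 CPM. WT library 1 was high, KO library 3 intermediate, and the other two libraries were low and close to each other. The WT libraries thus differed 5.58-fold and the KO libraries 2.32-fold. Of 7700 genes with a mean of at least 10 CPM, 0.0779% had a larger gap between the WT libraries and 1.61% a larger gap between the KO libraries. With that spread, the KO to WT difference of -0.88 on the log2 scale had an SE of 0.76 (edgeR adjusted p = 0.814). It turned to 0.84 without WT library 1 and was -1.65 without KO library 3, -1.64 without WT library 2 and -0.44 without KO library 4. With no filter on low counts edgeR called Gimap1 lower (log2 fold change -0.91, adjusted p = 0.000814), a setting under which 264 genes were called lower.

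The antisense transcript that overlaps Gimap1 did not share this spread. Gimap1os was at 444.5 and 409.1 CPM in KO and 502.2 and 511.7 CPM in WT. Both KO values were below both WT values, at -0.25 on the log2 scale with an SE of 0.13 (edgeR adjusted p = 0.623). For each 100 counts of Gimap1os there were 24.68 and 11.55 counts of Gimap1 in the KO libraries, against 48.74 and 8.55 in the WT libraries. Gm28053 had 105 and 125 counts in KO and 133 and 91 counts in WT, so that little of the cluster's signal was assigned to it. Gimap1 transcripts also had the highest GC content of the members, at 57.0% in the longest annotated transcript, against 41.3% (Gimap8) to 51.0% (Gimap3) in the others. Over 7697 genes, GC content and the log2 ratio of WT library 1 to WT library 2 had a Spearman rank correlation of 0.01. For the log2 ratio of KO library 3 to KO library 4 it was -0.165. The part of GC content and of the overlap with Gimap1os in the Gimap1 values was not tested.

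**Figure D4:**
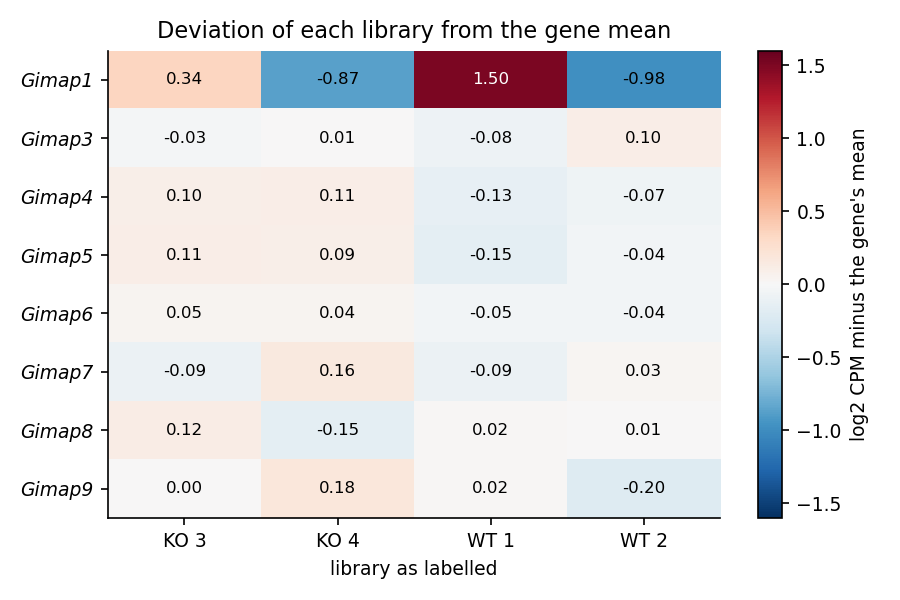
Log2 CPM of each Gimap gene (down) in each library (across) minus the gene's mean over the 4 libraries, as colour and printed value. Gimap1 ranges from -0.98 (WT 2) to 1.502 (WT 1), while every value of the other 7 genes lies between -0.20 and 0.18.

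As a family, the 8 genes summed to 8970 and 9119 CPM in the KO libraries and 8354 and 8538 CPM in the WT libraries. Both KO sums were above both WT sums, by 0.10 on the log2 scale. They made up 0.91% and 0.87% of all counts in KO and 0.88% and 0.83% in WT, so that on unscaled totals the groups overlapped. The shares of the members in the Gimap counts differed in how far they varied. Gimap4 supplied 35.96% and 35.64% of the Gimap counts in KO and 32.82% and 33.49% in WT, and Gimap6 supplied 27.28% and 26.71% in KO and 27.42% and 26.97% in WT. Gimap3 supplied 16.28% and 16.43% in KO and 16.8% and 18.74% in WT, with both KO shares below both WT shares. Gimap5 supplied 2.85% and 2.77% in KO and 2.56% and 2.70% in WT. For Gimap4 and for Gimap5, both KO shares were above both WT shares. Gimap1 supplied 1.22% and 0.52% in KO and 2.93% and 0.51% in WT. Gimap3 gave 5.72 and 5.94 counts for each Gimap5 count in KO, against 6.57 and 6.95 in WT. That ratio, taken for this pair alone, did not overlap between the genotypes, and it was not tested. With 2 libraries per group such separation is common, and the levels of 40.2% of all genes did not overlap. Gimap3 and Gimap5 are also the pair with shared sequence, so the split of reads between them is uncertain.

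Some members resembled each other more than the rest. By the Euclidean distance of centred log2 levels over the 4 libraries, Gimap4 and Gimap5 were closest (0.04), followed by Gimap4 and Gimap6 (0.13) and Gimap5 and Gimap6 (0.13). Every pair with Gimap1 was at least 1.93 apart, and the widest of the remaining pairs, Gimap8 and Gimap9, was 0.41 apart. By the same distance, the 5 nearest of 7692 other genes to the mean profile of the 8 members were Dhps, Ambra1, Bnip3, Smim14 and Senp7, at 0.02 to 0.04. That mean profile follows Gimap1. For the 7 members without it, a profile taken after the values were seen, the nearest were Chmp2a, Rac1, Mcrs1, Erg28 and Mettl6, at 0.02. With 4 libraries and small deviations, such likeness is a description.

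Genes around the known partners of GIMAP proteins did not differ detectably either. Of 21 genes of BCL2 proteins, autophagy, GSK3 and lysosomes, edgeR called 0 and DESeq2 called 0. Before adjustment, 1 gene was higher with p under 0.05 and 0 were lower. Their median log2 fold change was 0.04. The 4 with the smallest p included Lamp2, a lysosomal membrane protein gene, at 107.9 and 94.48 CPM in KO and 76.02 and 64.98 CPM in WT (log2 fold change 0.52, edgeR adjusted p = 0.42). They also included Bcl2l11, the gene of pro-apoptotic BIM (-0.44, edgeR adjusted p = 0.523), and Bcl2, whose protein binds Gimap3 and Gimap5 (-0.35, edgeR adjusted p = 0.55). The last was Kidins220, a scaffold protein gene (-0.48, edgeR adjusted p = 0.558).

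Genes of lymphocyte quiescence, a state that GIMAP proteins support in T cells, numbered 20. edgeR called 0 of them. Before adjustment, 3 genes were higher and 1 was lower with p under 0.05, and the list's median log2 fold change was -0.09. DESeq2 called 2 genes higher, among them Ccr7. Ccr7, a chemokine receptor gene of naive and central memory cells, had 47 and 41 counts in KO and 0 and 1 counts in WT (edgeR adjusted p = 0.312). Klf2, a quiescence factor gene, was at 3.164 and 2.802 CPM in KO and 1.03 and 0.89 CPM in WT (edgeR adjusted p = 0.494), and Satb1, a chromatin organiser gene, at 22.99 and 19.54 CPM in KO and 44.75 and 29.78 CPM in WT (edgeR adjusted p = 0.44). Ccr7 and Klf2 were thus at low levels next to the Gimap genes in every library.

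Other GTPase genes of immune cells gave 19 tested genes, of which edgeR and DESeq2 each called 0. Before adjustment, 1 gene was higher with p under 0.05 and 0 were lower, and the median log2 fold change was -0.04. The interferon-induced Gbp2 was at 161.3 and 148.5 CPM in KO and 111.2 and 115.1 CPM in WT (log2 fold change 0.45, edgeR adjusted p = 0.399). Rhoh (0.31), a GTPase gene of blood cells, and the interferon-induced Gbp4 (-0.31) and Irgm2 (0.35) followed, none past the threshold.

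Cell types that express Gimap genes were checked with marker lists, since T cells, B cells, NK cells and endothelial cells transcribe them too. The 17 ILC1 markers were all tested and summed to 15710 and 17060 CPM in KO and 12850 and 13820 CPM in WT. Of these, edgeR called 0, with 2 higher and 1 lower before adjustment. DESeq2 called 1 each way, Gzma higher and Ncr1 lower. Gzma, the highest of the list in every library, stood at 6110 and 7481 CPM in KO and 3694 and 4126 CPM in WT. The 16 T cell markers summed to 3283 and 4368 CPM in KO and 2765 and 2735 CPM in WT, and edgeR called 1 of 14 tested higher, the receptor segment Trac, at 85.09 and 200.9 CPM in KO against 7.31 and 5.67 CPM in WT (adjusted p = 0.0489). Before adjustment, 6 T cell markers were higher with p under 0.05 and 0 were lower. DESeq2 called 4 higher, which were Trac, Cd3e, Cd3d and Cd8a. The list's median log2 fold change was 0.40. Trbc1 (-0.38), Bcl11b (-0.42) and Cd8b1 (-1.07) went the other way, none past the threshold. Most of the T cell sum came from Cd3g, Trbc2 and Trbc1, which were the highest of the list in WT too. Cd3g stood at 1623 and 1930 CPM in KO and 1469 and 1255 CPM in WT (log2 fold change 0.38, edgeR adjusted p = 0.515). Cd3e, which encodes a CD3 signalling chain, stood at 152.5 and 371.0 CPM in KO and 26.49 and 15.13 CPM in WT (log2 fold change 3.65, edgeR adjusted p = 0.095). Cd3d, the gene of another such chain, stood at 87.09 and 209.3 CPM in KO and 21.38 and 18.54 CPM in WT (2.89, edgeR adjusted p = 0.117). Cd8a, a coreceptor gene, was at 59.77 and 141.3 CPM in KO and 15.23 and 19.66 CPM in WT (2.53, edgeR adjusted p = 0.172). The 15 NK cell markers summed to 6155 and 7536 CPM in KO and 4056 and 4214 CPM in WT, with 1 of 14 tested called higher, the Ly49 receptor gene Klra7. Before adjustment, 6 NK cell markers were higher and 0 were lower, DESeq2 called 4 higher, and the list's median log2 fold change was 0.90. Gzmb made up most of the NK cell sum, at 5120 and 5797 CPM in KO and 3387 and 3518 CPM in WT. Among the tested NK cell markers only Itga2 (-0.34) went the other way, and it did not pass the threshold. The 10 B cell markers in the table summed to 649.3 and 804.1 CPM in KO and 717.6 and 1046 CPM in WT, nearly all of it Ighm, and 0 of 5 tested were called by edgeR or DESeq2 or had an unadjusted p under 0.05. The 18 endothelial markers summed to 92.09 and 104.8 CPM in KO and 70.90 and 103.8 CPM in WT, with Lyve1 and Emcn at 0 in every library and 0 of 8 tested called by edgeR, 1 higher and 1 lower before adjustment, and 1 called higher by DESeq2.

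Markers of cell types not known for high Gimap levels were summed as well. The 20 markers of monocytes, macrophages and dendritic cells summed to 1625 and 1608 CPM in KO and 768.8 and 836.2 CPM in WT, with 2 of 18 tested called higher, Lyz2 and Csf1r. Before adjustment, 11 of the 18 were higher with p under 0.05 and 0 were lower, DESeq2 called 7 higher, and the median log2 fold change was 1.46. Those of neutrophils summed to 250.2 and 168.1 CPM in KO and 102.8 and 97.62 CPM in WT, with Retnlg at 0 in every library. Nearly all of that sum was Mmp9, at 242.9 and 153.5 CPM in KO and 101.9 and 94.38 CPM in WT. Of the 12 neutrophil markers 4 were tested. Mmp8 and Csf3r were also higher in both KO libraries, while S100a8 had 11 and 0 counts in KO and 19 and 1 in WT. Those of hepatocytes summed to 182.9 and 197.7 CPM in KO and 198.8 and 125.9 CPM in WT. Of neutrophil and hepatocyte markers edgeR called 0, while DESeq2 called 2 and 1 higher, the same numbers as had an unadjusted p under 0.05. Over all lists, the ILC1, NK cell, T cell and endothelial marker sums were each highest in KO library 4, the library with the highest Gimap sum. The sums of the remaining lists were highest in other libraries. The endothelial sum was nearly as high in WT library 2 (103.8 CPM) as in KO library 4 (104.8 CPM). Between the WT libraries, the Gimap sum was higher in library 2 (8538 against 8354 CPM), as were the ILC1, NK cell and endothelial sums. The T cell sum was higher in WT library 1 (2765 against 2735 CPM). Between KO libraries 4 and 3, Gimap7 was 1.189-fold and Gimap9 1.126-fold higher in library 4, Gimap8 was 1.209-fold and Gimap1 2.318-fold higher in library 3, and Gimap3, Gimap4, Gimap5 and Gimap6 differed 1.026-fold or less. The part of these cells in the Gimap levels was not tested.

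**Figure D5:**
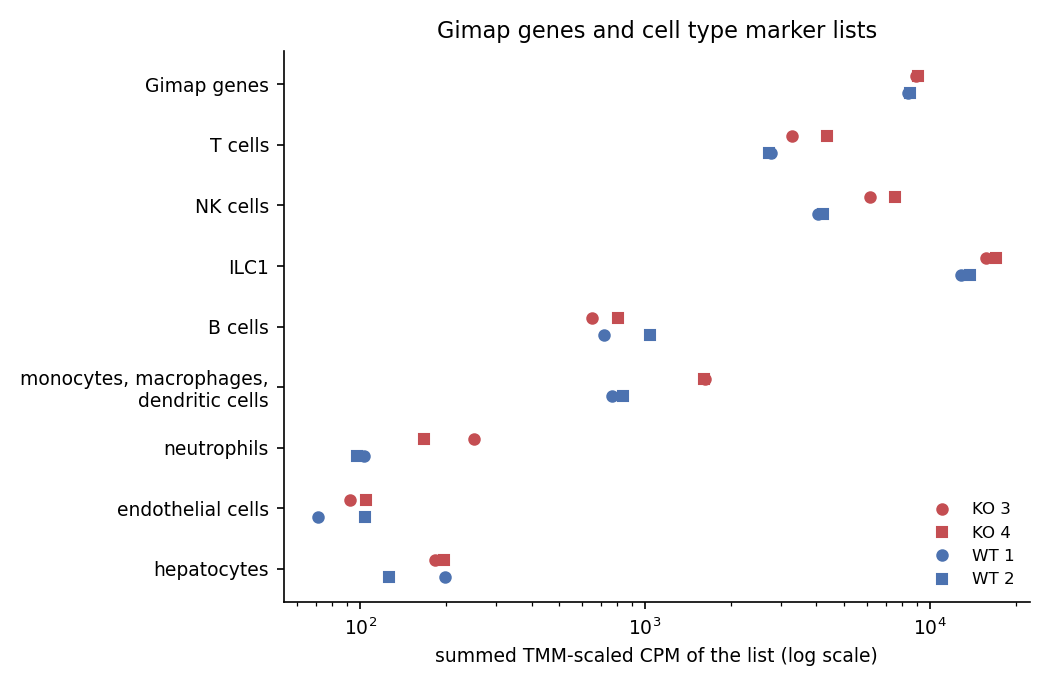
Summed level of the 8 Gimap genes and of each marker list (TMM-scaled CPM, log axis) in the 4 libraries, KO in red above WT in blue. The Gimap sum spans 8354 to 9119 CPM, while the myeloid list is at 1608 and 1625 CPM in KO and 768.8 and 836.2 CPM in WT.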

How the data were processed

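RNA-seq libraries of CD49a-selected mouse ILC1s, 2 labelled KO and 2 labelled WT, were compared. Per the labels' protocols, low-input SMARTer libraries were made from total RNA and sequenced on a NovaSeq. The authors deposited raw read counts per gene. Per the submitters' processing notes, bcl2fastq, STAR 2.5.1a, Subread, featureCounts 1.4.6-p5 and DESeq2 were used with mm10. The sources used here give neither annotation nor strand setting.

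The 276 repeated lines of the table, identical in counts, were collapsed. Genes passing filterByExpr (14863) were tested in R 4.3.3 with edgeR 4.0.16 after TMM scaling (robust quasi-likelihood, two-sided, genotype as the only term, 2 residual degrees of freedom), with Benjamini-Hochberg adjustment over all of them and a threshold of 0.05. Standard errors (SE) and 95% intervals were calculated from that fit's means and dispersions, with quasi-dispersions moderated over genes. The fit was also run on simulated counts with the same dispersion for every gene. That run is no check on the intervals of genes with a wide replicate gap, such as Gimap1. Alternatives used DESeq2 1.42.0 and limma 3.58.1. With totals from 42380840 to 54878210 counts and at least 2068 counts per Gimap gene and library, counting error was small for every Gimap gene, though for members whose replicates nearly coincide it can be as large as the gap between them.

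Exon lengths and positions came from GENCODE M21 (mm10), and log2 values for distances and gaps had 0.1 CPM added. The members and gene lists were chosen with earlier results of these data known. Named were the 8 genes, Inpp4b, Ncr1, the other listed genes of the cluster, at most 4 genes per pathway list by smallest p, and the 5 genes nearest to the members' mean profile. A gene that the rule also names is not reported here. The motifs, and any other gene named, were picked once values had been seen.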

Additional observations from a re-analysis of the deposited data

How the results depend on the processing

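In 112 refitted values of single Gimap genes under 14 alternatives, 5 changed sign and 1 passed the threshold. Gimap3 turned to 0.0059 with upper-quartile factors. Leaving out 1 library gave ranges of -1.65 to 0.84 for Gimap1, -0.11 to 0.079 for Gimap3, -0.093 to 0.16 for Gimap7 and -0.19 to 0.075 for Gimap8. Gimap4, Gimap5, Gimap6 and Gimap9 stayed above 0 under all 14. Members called higher numbered 0 in every fit, and members called lower numbered 0 except for 1 (Gimap1) with no filter on low counts. The log2 ratio of the summed level was 0.10 in the main fit, where the spread (SD) between replicates was 0.020. That spread belongs to the main setting and is no measure for the alternatives. The ratio was 0.12 with upper-quartile factors, 0.079 with no filter and 0.069 with at least 50 counts in 2 libraries. It was 0.059 to 0.118 with 1 library left out. With library totals alone it was 0.055, and the groups overlapped (0.91% and 0.87% of counts in KO, 0.88% and 0.83% in WT). Without Gimap1 in the sum, an alternative chosen after seeing the data, it was 0.11. Replicates of that sum lay further apart, at 8861 and 9071 CPM in KO and 8110 and 8495 CPM in WT. Over all genes, 21 were called higher and 2 lower. The counts were 299 and 264 with no filter, 40 and 9 with at least 50 counts in 2 libraries, 278 and 204 with DESeq2, and 6 lower with library totals alone. With 1 library left out they were 0 to 18 higher and 0 to 2 lower. The cause was not tested. The labels give the groups no shared replicate numbers, but the column names end in 1 or 2 within each group. A fit with these numbers as a replicate block, chosen after seeing the data, called 0 higher, 0 lower and 0 Gimap genes. Deviations of the libraries numbered 1 correlated at 0.25 over genes, and 2 pairs do not show a pairing.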

Other observations

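The high value of Gimap1 in WT library 1 was shared by some other genes, which were looked up after its values were seen. By distance of centred log2 levels, the 5 genes nearest to Gimap1 were Cox5a, Cyc1, Fam53a, Ier2 and Ddost, at 0.31 to 0.47. Cox5a, a subunit gene of mitochondrial complex IV, was at 22.85 and 7.44 CPM in the KO libraries and 49.36 and 7.92 CPM in the WT libraries. Cyc1, the cytochrome c1 gene of complex III, was at 28.69 and 15.19 CPM in KO and 73.71 and 15.45 CPM in WT. In both genes WT library 1 was highest and KO library 3 next, as in Gimap1, a likeness that the choice by distance builds in.

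Only 6 of 7700 genes differed more between the WT libraries than Gimap1, and 4 of these were higher in WT library 1. Those 4 were Gm5424, Ltb, Cox5a and Junb. Ltb, the lymphotoxin beta gene, was at 29.83 and 13.55 CPM in KO and 107.5 and 13.91 CPM in WT. Junb, an AP-1 factor gene, was at 121.2 and 57.26 CPM in KO and 197.1 and 33.19 CPM in WT. The 2 genes higher in WT library 2 were Baiap3, at 0 and 0.12 CPM in KO and 0.43 and 45.15 CPM in WT, and Cyp4f18, at 18.22 and 17.63 CPM in KO and 0.85 and 7.32 CPM in WT.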
